A study of Mus musculus with 8 samples.

Results

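The genes described here carry glucose into the muscle fibre, break it down to pyruvate and lactate, and store it as glycogen. They were given as a list of 45 symbols and were found among the 22880 counted genes by the symbol that belongs to each Ensembl identifier. RNA-seq counts were made from the soleus, a slow postural calf muscle, of 4 control mice (Dnm2 +/+) and 4 heterozygous mice with a K562E point mutation in 1 copy of Dnm2 (Dnm2 +/K562E). All 8 were C57BL/6 males of 2 months and separate animals. Dnm2 encodes dynamin 2, a GTPase that pinches vesicles off membranes, and the mutation is carried in every cell, so these samples do not separate effects in muscle fibres from effects in other cells. The question asked of the genes was how the 2 genotypes differ in them, and whether isoforms typical of muscle differ in the same way as isoforms found in most tissues.

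In glycolysis, glucose enters through a GLUT transporter, is trapped by hexokinase and is split and oxidised to pyruvate, which lactate dehydrogenase can turn into lactate for export by monocarboxylate transporters. Phosphofructokinase is the main control point, and its activator, fructose 2,6-bisphosphate, is made and removed by the PFKFB enzymes. Glycogen is built by phosphoglucomutase, UDP-glucose pyrophosphorylase, glycogenin, glycogen synthase and the branching enzyme, and is broken down by glycogen phosphorylase, which phosphorylase kinase switches on. Several steps are run by a muscle-enriched isoform and a broadly expressed one, for example GLUT4 and GLUT1 or hexokinase 2 and hexokinase 1. The mature fibre relies mainly on the muscle isoform.

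Total counts ran from 33407430 to 48832814 reads per mouse, and the levels below are normalized CPM, that is, counts relative to library size (CPM) after scaling by TMM factors. These factors were 0.9145 to 0.9594 in controls and 1.037 to 1.103 in Dnm2 +/K562E mice. No pair of libraries of 1 genotype agreed within sampling noise (chi-square over degrees of freedom from 12.6 to 55.2). The first principal component (62.42% of the variance) separated the genotypes, and the second (10.24%) set control 1 apart from the other 7 mice. Control 4 stood apart in the fast type IIB myosin Myh4, at 3134 normalized CPM against 426, 372 and 163 in controls 1 to 3 and 34.0 to 50.9 in the mutants. Gene counts do not show the point mutation, and the normalized CPM of Dnm2 itself was 66.3 ± 4.74 for controls and 73.4 ± 2.43 for mutants (SD, n = 4 each; adjusted p = 0.0909), so the gene counts give no check of the genotypes; allele-specific reads were not analysed here. All 8 slow and all 10 fast fibre markers had a lower mean in the mutants, and 3 and 7 of them passed both thresholds given below. Their summed levels went from 19589.6–23078.3 to 11363.9–14374.5 for slow and from 46305.7–49105.7 to 29470.5–34829.1 for fast fibres. All 9 macrophage markers, all 7 fibroblast markers and all 5 tendon markers passed as higher, with sums of 130–246 against 295–492, of 2557–3862 against 6079–7999 and of 293–630 against 884–1209. All 5 red blood cell markers were called lower (median log2 fold change -0.95, sums of 525–894 against 248–517), and all 5 endothelial markers were lower at the adjusted p, 1 of them past both thresholds (median -0.40, sums of 921–968 against 651–751). The part of these markers in the results below was not tested. In whole muscle, fewer fibres and less RNA per fibre cannot be told apart.

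Each gene was compared between the genotypes with edgeR's quasi-likelihood test, and a gene was called when its Benjamini-Hochberg adjusted p over all 14001 tested genes was under 0.05 and its log2 fold change was at least 0.58 in either direction. Over all tested genes, 20.7% were called in either direction. Of the 45 genes, 44 were tested. The exception was the brain aldolase Aldoc, which failed the filter on low counts at 0.177 to 0.382 normalized CPM. In Dnm2 +/K562E soleus, 18 genes fell and 2 rose, while 7.85% of all tested genes were called lower and 12.9% higher. At the adjusted p alone, 25 were lower and 5 higher, against 21.7% and 22.2% of all genes, and 14 did not pass. The genotypes did not overlap in 24 lower and 5 higher genes, as in 20.5% and 20.6% of all genes. The median log2 fold change was -0.42, beside 0.0074 over all tested genes, and the single values ran from -2.52 (Slc16a3) to 1.39 (Stbd1). Summed over the 45 genes, the level was 22765.7 to 25959.9 normalized CPM in controls and 17637.7 to 18639.6 in Dnm2 +/K562E mice, without overlap. Scaling by library size alone shifted the overall median to 0.22 and the median of these genes to -0.21, and 12 then passed as lower and 3 as higher. Hk2, Tpi1, Pgam2, Gys1, Phka1 and Ppp1r3c lost their call under it and Pygb gained one. Without control 1 and control 4 together, 20 genes were called lower and 4 higher, and Hk1 was not among the higher ones.

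**Figure D1:**
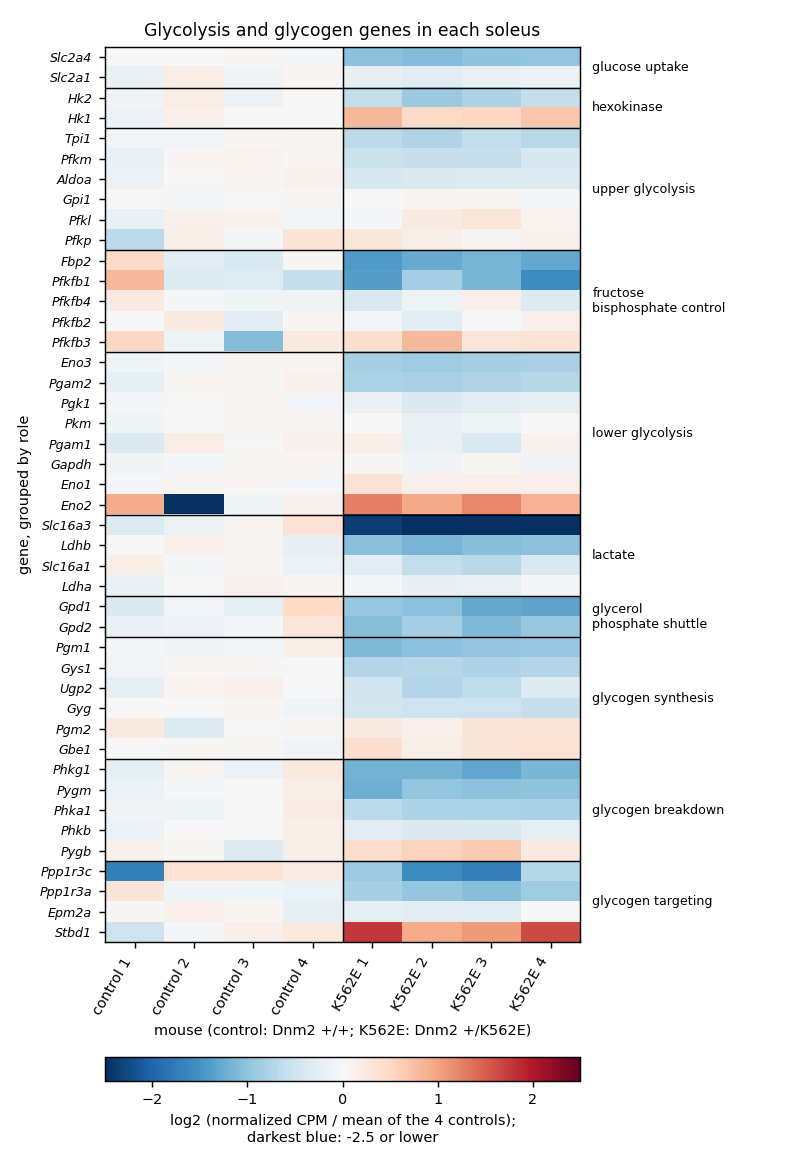
Colours show the level of the 44 tested genes in each mouse as the log2 ratio to the mean of the 4 controls, with genes in rows grouped by role and mice in columns. The rows are mostly pale in controls and blue in the 4 Dnm2 +/K562E columns, with red rows for Hk1, Eno2, Pygb and Stbd1; the lowest values of Slc16a3 and the 0.0891 CPM of Eno2 in control 2 lie at or below the end of the scale.

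Of the 2 glucose transporter genes, the muscle one fell. Slc2a4 (chromosome 11, 69942539 to 69948188, minus strand, GRCm38) encodes GLUT4, the insulin- and contraction-responsive transporter. It was at 594, 598, 611 and 577 normalized CPM in controls 1 to 4 and at 290.4, 283, 296 and 299 in Dnm2 +/K562E mice 1 to 4. The groups lay far apart with little spread inside either, and Slc2a4 fell to 0.49 of the control level (log2 fold change -1.03, standard error 0.053, adjusted p = 5.41e-07). Slc2a1, which encodes the broadly expressed GLUT1, was at 14.7, 19.0, 15.6 and 17.3 in controls and 14.4, 13.8, 14.6 and 14.9 in mutants. Its ranges overlapped and it did not pass the test (log2 fold change -0.20, adjusted p = 0.0944), and its sign turned to 0.0074 with library size alone.

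The hexokinases, which phosphorylate glucose on entry, moved in opposite directions. Hk2 (chromosome 6, 82725025 to 82774454, minus strand), the muscle-enriched enzyme, was at 365, 444, 353 and 391 in controls and 252, 204, 229 and 258 in Dnm2 +/K562E mice. It fell by 0.72 on the log2 scale (standard error 0.093, adjusted p = 1.26e-04). Hk1 (chromosome 10, 62268855 to 62379908, minus strand), the broadly expressed enzyme, was at 28.1, 34.1, 31.3 and 31.5 in controls and 55.6, 43.9, 44.7 and 50.8 in mutants. Every mutant value lay above every control value, and Hk1 rose by 0.64 on the log2 scale (standard error 0.090, adjusted p = 2.22e-04). That change stands close to the fold threshold, and without Dnm2 +/K562E mouse 1 it was 0.57, just short of it. Without controls 1 and 4 it was 0.56, also short of it.

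Of the 7 genes of upper glycolysis, 6 were tested, 1 was called and 2 more were lower at the adjusted p without reaching the fold threshold. Triose phosphate isomerase, Tpi1, which interconverts the products of aldolase, was the called one, at 986, 989, 1077 and 1089 in controls and 660.1, 618, 676 and 641 in mutants (log2 fold change -0.67, standard error 0.062, adjusted p = 1.26e-05). Pfkm, the muscle subunit of phosphofructokinase, was at 1181, 1380.2, 1424 and 1390.4 in controls and 914, 896, 904 and 1015 in mutants. These ranges did not overlap either, and the difference of -0.53 on the log2 scale (standard error 0.076, adjusted p = 2.49e-04) was just under the threshold. Without control 1 it was -0.59 and passed.

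The muscle aldolase Aldoa, which cleaves fructose 1,6-bisphosphate, was the most abundant of the 45 genes per kilobase of exon, at 1722 normalized CPM per kb in controls. Here exon length joins all annotated exons of a gene and can exceed any 1 transcript. Ranks and shares per kilobase depend on it. Aldoa was at 4494, 4959.9, 5185 and 5410.1 in controls and 3809, 3879.9, 3969.7 and 3932 in mutants. It was lower in all 4 mutants than in any control, but by only 0.36 on the log2 scale (standard error 0.072, adjusted p = 0.0021), under the fold threshold. The other phosphofructokinase subunits stayed within the spread. Pfkl, the liver-type subunit, was at 17.6, 22.0, 21.7 and 19.2 in controls and 19.6, 23.4, 24.7 and 21.4 in mutants (adjusted p = 0.258). Pfkp, the platelet-type subunit, was at 12.1, 21.1, 18.7 and 24.2 against 23.0, 21.1, 19.7 and 20.4 (adjusted p = 0.508), and without control 1, the lowest mouse, its log2 fold change turned from 0.15 to -0.02. Glucose phosphate isomerase, Gpi1, differed by 0.02 on the log2 scale (adjusted p = 0.781).

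The enzymes that set fructose 2,6-bisphosphate and reverse the phosphofructokinase step were expressed at lower levels, and 2 of 5 fell. Fbp2, the muscle fructose bisphosphatase, was at 14.9, 8.94, 8.29 and 10.9 in controls and 4.02, 4.49, 4.79 and 4.46 in Dnm2 +/K562E mice (log2 fold change -1.27, standard error 0.178, adjusted p = 2.08e-04). Pfkfb1, an isoenzyme known from muscle and liver, was at 65.7, 29.6, 30.1 and 25.4 in controls and 14.6, 21.1, 17.1 and 12.7 in mutants. Control 1 was above every other mouse, but the mutants were also below the other 3 controls. The log2 fold change of Pfkfb1 was -1.20 (standard error 0.281, adjusted p = 0.00536) with control 1 and -0.80 (adjusted p = 0.0012) without it, and no alternative ended the call. Pfkfb3, the inducible isoenzyme with high kinase activity, was at 37.2, 23.9, 12.2 and 30.6 in controls and 34.1, 45.3, 32.2 and 32.9 in mutants. The ranges overlapped and it was not called (log2 fold change 0.48, adjusted p = 0.166), although it passed without control 1 (0.70, adjusted p = 0.0352; 0.00627 to 0.355 over the alternatives). Pfkfb2 and Pfkfb4 had log2 fold changes of -0.05 and -0.16 and adjusted p of 0.747 and 0.31. Pfkfb2 shares 17.4% of its exon bases with Gm29427 on the same strand.

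In lower glycolysis, 2 of 8 genes fell, 1 more was lower and 1 higher under the fold threshold, and 4 did not pass the test. The muscle phosphoglycerate mutase Pgam2 and the muscle enolase Eno3 followed Aldoa in abundance per kilobase in controls, at 922 and 903 normalized CPM per kb, and both fell. Gapdh was close behind at 897, over 4133 exon bases against 840 for Pgam2 and 1739 for Eno3. Pgam2 was at 663, 805, 790.3 and 839 in controls and 446, 439.6, 463 and 471 in mutants (log2 fold change -0.77, standard error 0.076, adjusted p = 2.14e-05). Eno3 was at 1448, 1525, 1650.3 and 1655 in controls and 885, 843, 883 and 897 in mutants (log2 fold change -0.84, standard error 0.064, adjusted p = 3.76e-06).

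Neither of their broadly expressed partners passed as lower. Pgam1 was at 7.75, 11.3, 9.83 and 10.7 in controls and 11.03, 8.69, 7.63 and 10.7 in mutants, with overlapping ranges (log2 fold change -0.06, adjusted p = 0.765; 0.15 with library size alone). Eno1 was at 96.4, 104, 103 and 97.9 in controls and 129, 109, 109 and 109.8 in mutants. All 4 mutants were above the controls, by a log2 fold change of 0.19 that passed the adjusted p (0.0435) and not the fold threshold. This pass was lost under 13 of 17 alternatives (adjusted p from 0.0013 to 0.228). Neuronal enolase, Eno2, was near the lower limit of detection, at 0.0891 to 1.61 in controls and 1.54 to 2.04 in mutants (log2 fold change 1.08, standard error 0.502, adjusted p = 0.105). Without control 1 it passed both thresholds, at 1.56 (adjusted p = 0.0222, and 0.0157 to 0.194 over the alternatives).

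Gapdh, which makes the first reduced cofactor of the pathway, was at 3512, 3658, 3826 and 3838 in controls and 3833, 3487, 3794 and 3490.0 in mutants. The genotypes overlapped, with -0.02 on the log2 scale (standard error 0.067, adjusted p = 0.809), or 0.19 with library size alone. Phosphoglycerate kinase, Pgk1, was lower by 0.26 on the log2 scale (adjusted p = 0.00414) without reaching the fold threshold. Pyruvate kinase, Pkm, differed by -0.06 on the log2 scale (adjusted p = 0.498), and gene counts do not separate its M1 and M2 transcripts. Some of these genes share sequence with transcripts of other genes, and reads from such stretches could be placed there or dropped. Other genes' transcripts hold 54.7% of the 31-base stretches of Pgk1, 37.1% of Pgam1 and 34.7% of Pkm. The shares were 33.0% for Ldhb, 28.5% for Eno1 and 28.1% for Gapdh, so the levels of these genes are uncertain. Pgk1-rs7, the closest match of Pgk1, was at 0.865 normalized CPM in controls, and Eno1b, that of Eno1, at 0.102. Such low levels cannot show how many reads were dropped, because counting required a mapping quality of at least 10.

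**Figure D2:**
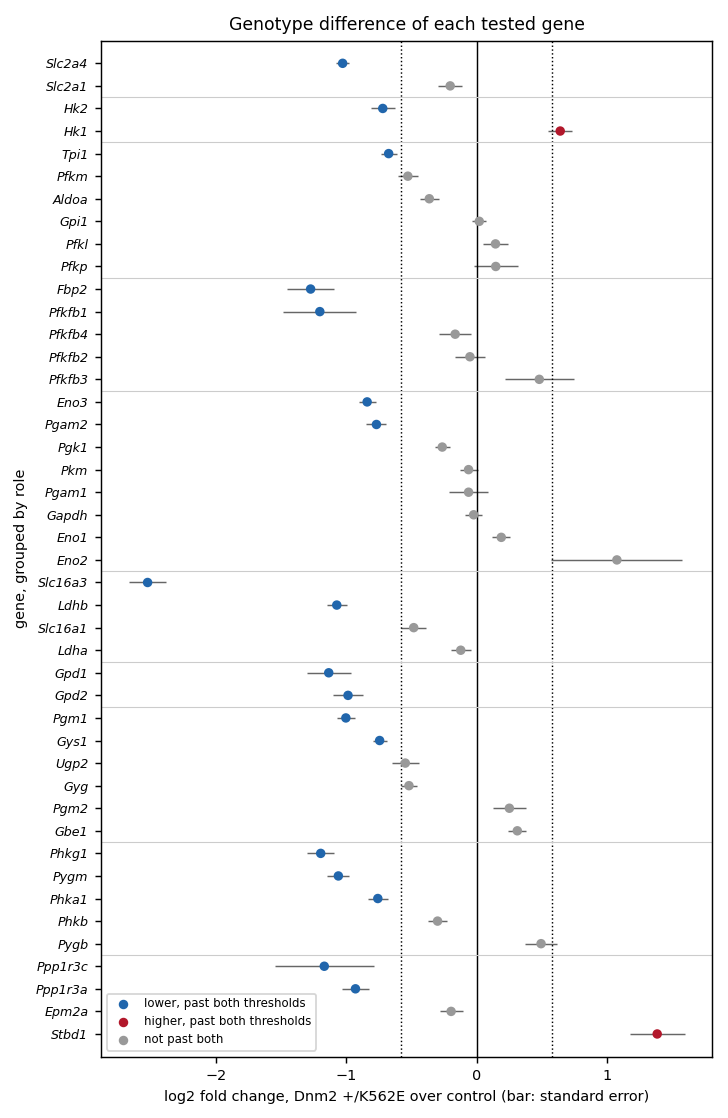
Points show the log2 fold change of each of the 44 tested genes, Dnm2 +/K562E over control, with its standard error as a bar, and dotted lines mark the threshold of 0.58 in both directions. The 18 blue points lie left of the left line down to -2.52 for Slc16a3, and the 2 red points, Hk1 and Stbd1, lie right of the right line.

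Lactate handling showed the largest single decrease. Slc16a3 (chromosome 11, 120948480 to 120960868, plus strand) encodes MCT4, the lactate exporter typical of fast glycolytic fibres. It was at 42.5, 47.8, 56.3 and 68.7 normalized CPM in controls and 10.6, 9.06, 9.45 and 8.35 in Dnm2 +/K562E mice. All 4 mutants lay below the lowest control, and Slc16a3 fell to 0.174 of the control level (log2 fold change -2.52, standard error 0.145, adjusted p = 8.03e-07). Control 4, which stood apart in Myh4, had the highest Slc16a3, and its exclusion gave -2.39 on the log2 scale (adjusted p = 9.83e-07). Slc16a1 encodes MCT1, the transporter of oxidative fibres, and was at 110.1, 98.2, 102 and 88.8 in controls and 81.7, 65.5, 62.0 and 76.4 in mutants. These ranges did not overlap, and the log2 fold change of -0.48 (adjusted p = 0.00222) was under the fold threshold.

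The 2 lactate dehydrogenase subunits differed from each other. Ldhb (chromosome 6, 142490249 to 142507957, minus strand), the heart-type subunit of oxidative muscle, was at 1023, 1129, 1079 and 896 in controls and 501, 460.4, 495 and 505 in mutants. It fell by 1.07 on the log2 scale (standard error 0.077, adjusted p = 2.65e-06). Ldha, the muscle-type subunit that favours lactate formation, was at 731, 841, 898 and 877 in controls and 808, 722, 732 and 813 in mutants, with overlap (log2 fold change -0.12, adjusted p = 0.231; 0.089 with library size alone).

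Both enzymes of the glycerol phosphate shuttle, which passes electrons from glycolysis to mitochondria, fell. Gpd1, the cytosolic enzyme, was at 98.8, 120.5, 108 and 177 in controls and 65.6, 61.8, 51.8 and 50.7 in mutants (log2 fold change -1.13, standard error 0.167, adjusted p = 2.99e-04). Gpd2, the mitochondrial enzyme, was at 29.2, 29.8, 32.1 and 40.9 in controls and 15.8, 18.2, 15.4 and 17.2 in mutants (log2 fold change -0.99, standard error 0.112, adjusted p = 5.17e-05). Control 4 was highest in both, as in 10 of the 18 lower genes. Without it both calls stood, at -0.93 (adjusted p = 8.3e-05) for Gpd1 and -0.88 (adjusted p = 3.05e-05) for Gpd2, and neither call was lost under any of the 17 alternatives.

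In glycogen synthesis, 2 of 6 genes fell and 2 more were lower without reaching the fold threshold. Phosphoglucomutase 1, Pgm1 (ENSMUSG00000025791, chromosome 4, 99929414 to 99987294, plus strand), links glucose 6-phosphate to glucose 1-phosphate and was at 302, 291, 294 and 342 in controls and 143, 152, 158 and 160.2 in mutants. It fell to 0.499 of the control level (log2 fold change -1.003, standard error 0.069, adjusted p = 1.98e-06). Gys1 (chromosome 7, 45434844 to 45456619, plus strand), the muscle glycogen synthase, was at 571, 609.8, 611 and 599 in controls and 358, 364, 348 and 358 in mutants. The spread was small in both groups, and Gys1 fell by 0.74 on the log2 scale (standard error 0.053, adjusted p = 2.5e-06).

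Glycogenin, Gyg, which primes the particle, and Ugp2, which makes UDP-glucose, had log2 fold changes of -0.52 (adjusted p = 5.08e-05) and -0.55 (adjusted p = 0.00137), just under the threshold, and Ugp2 passed it without control 1 (-0.63). The branching enzyme Gbe1 differed in the other direction, at 126 to 137 in controls and 147 to 179 in mutants. Its log2 fold change was 0.31 (adjusted p = 0.00371), again under the threshold. Pgm2 (ENSMUSG00000029171), which acts mainly on pentose phosphates, differed by 0.25 on the log2 scale (adjusted p = 0.125). Part of the exons of Pgm1 (13.6%), Gys1 (6.47%) and Phkg1 (9.68%) overlaps a gene on the other strand, and the sources used here do not state whether counting used strand. The genes overlapping these had low means in controls and mutants: 3.40 and 3.05 normalized CPM for Itgb3bp (Pgm1), 22.6 and 14.5 for Ruvbl2 (Gys1). Sumf2 (Phkg1) was at 6.44 and 6.48. For Pfkp the overlapping gene was the more abundant one. Pfkp shares 5.58% of its exon bases with Pitrm1 on the other strand. Pitrm1 was at 52.1 and 45.4, against 19.0 and 21.1 for Pfkp. The level of Pfkp and the Pfkm to Pfkp ratio given below are therefore uncertain.

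Of the 5 genes of glycogen breakdown, 3 fell, those of the central enzyme and of 2 subunits of its activating kinase. Pygm (chromosome 19, 6384399 to 6398459, plus strand), the muscle glycogen phosphorylase, was at 1641, 1826, 1860.4 and 2079 in controls and 797, 932, 905 and 916 in Dnm2 +/K562E mice. It fell to 0.479 of the control level (log2 fold change -1.06, standard error 0.084, adjusted p = 4.46e-06). Phkg1, the catalytic muscle subunit of phosphorylase kinase, was at 81.5, 101, 87.1 and 115 in controls and 42.7, 42.4, 39.2 and 43.8 in mutants (log2 fold change -1.20, standard error 0.102, adjusted p = 7.7e-06). Phka1, its muscle regulatory subunit, was at 167, 162, 177 and 204 in controls and 112, 104, 103 and 101 in mutants (log2 fold change -0.76, standard error 0.078, adjusted p = 2.61e-05). In all 3 genes control 4 was the highest and no mutant reached the lowest control.

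Phkb, the subunit shared between tissues, was lower by 0.30 on the log2 scale (adjusted p = 0.00595), under the fold threshold. The brain phosphorylase Pygb went the other way, at 24.3, 23.3, 17.8 and 25.1 in controls and 30.8, 33.9, 35.9 and 26.8 in mutants. All 4 mutants exceeded the controls, and the difference of 0.49 on the log2 scale (standard error 0.120, adjusted p = 0.00661) did not reach the threshold. It passed with library size alone (0.71) and without controls 1 and 4 (0.62).

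Proteins that bring enzymes to the glycogen particle were the most uneven group. Ppp1r3a, the muscle subunit that targets protein phosphatase 1 to glycogen, was at 267, 197, 198 and 191 in controls and 120.1, 109.8, 102 and 116 in mutants (log2 fold change -0.93, standard error 0.106, adjusted p = 5.45e-05). Ppp1r3c, another targeting subunit known as PTG, was at 145, 596, 591 and 536 in controls and 249, 157, 142 and 283 in mutants. Control 1 lay within the mutant range, so that the groups overlapped. Ppp1r3c was called (log2 fold change -1.17, standard error 0.381, adjusted p = 0.0284), but the call was lost with library size alone (adjusted p = 0.0558), with the title numbers as a block (adjusted p = 0.0988) and without any 1 of controls 2, 3 and 4 or Dnm2 +/K562E mice 2 and 3. Without control 1 the log2 fold change was -1.48 (adjusted p = 1.68e-04), and over 17 alternatives the adjusted p ran from 1.68e-04 to 0.0988.

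Stbd1 (chromosome 5, 92603041 to 92606579, plus strand) encodes a glycogen-binding protein linked to the delivery of glycogen to lysosomes. It was at 8.37, 11.8, 13.5 and 14.4 in controls and 40.9, 22.9, 25.0 and 37.2 in Dnm2 +/K562E mice. Every mutant was above every control, and Stbd1 rose by 1.39 on the log2 scale (standard error 0.210, adjusted p = 3.62e-04), the largest increase of the 44. Epm2a, the glycogen phosphatase laforin, differed by -0.20 on the log2 scale (adjusted p = 0.0933).

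**Figure D3:**
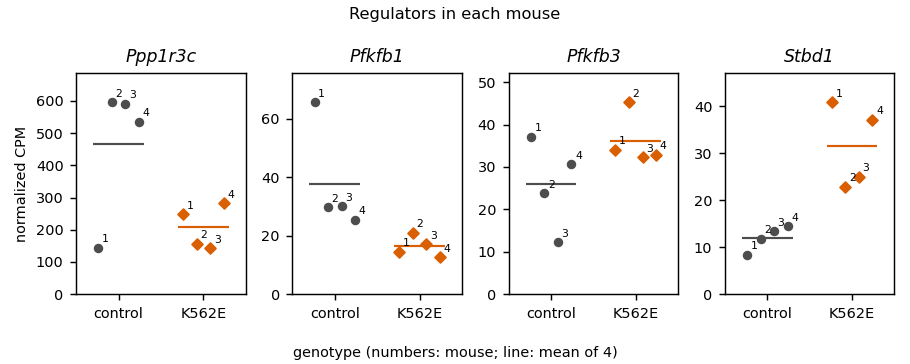
Points show normalized CPM of Ppp1r3c, Pfkfb1, Pfkfb3 and Stbd1 in each mouse (numbers), with a line at the mean of the 4 mice of a genotype. Control 1 lies at 145 for Ppp1r3c among the mutants and at 65.7 for Pfkfb1 far above the others, while the groups are separate for Stbd1.

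The comparison of isoforms was drawn from 7 muscle-enriched genes (Slc2a4, Hk2, Pfkm, Aldoa, Pgam2, Eno3 and Pygm) and 8 partner genes. The partners (Slc2a1, Hk1, Pfkl, Pfkp, Aldoc, Pgam1, Eno1 and Pygb) were taken as the broadly expressed isoforms, although Aldoc is the brain aldolase. Of all tested genes, 21.7% were lower and 22.2% higher at the adjusted p, 20.5% were lower without overlap and 7.85% were called lower. All 7 muscle-enriched genes were lower at the adjusted p and did not overlap between genotypes, and 5 passed both thresholds. Their median log2 fold change was -0.77 (range -1.06 to -0.36), and with library size alone all 7 values remained below 0, 6 were lower at the adjusted p (Aldoa was at 0.0927) and 3 passed both thresholds. Of the 7 tested partners, none was lower at the adjusted p, 3 were higher (Hk1, Eno1 and Pygb) and 4 did not pass. Without Eno1, whose pass most alternatives ended, 2 were higher, and Slc2a1 passed as lower without control 1 (adjusted p = 0.03). Their median log2 fold change was 0.15 (range -0.20 to 0.64).

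Ratios within a mouse need no scaling between libraries, and for each pair the log2 ratio of the counts was compared by an exact two-sided permutation test over the 8 mice. The smallest p this design allows is 0.0286. All 8 ratios of a muscle-enriched gene to its partner were lower in every Dnm2 +/K562E mouse than in any control (each exact p = 0.0286, Benjamini-Hochberg adjusted p = 0.0314 over 11 ratios). The ratios rest on the same counts as the single genes, of which all 7 muscle-enriched ones were already lower without overlap. Pfkm also enters both phosphofructokinase ratios, so the ratios are not separate support. Without overlap between genotypes, in either direction, were also 41.2% of all single genes tested. No such share was computed for ratios of other gene pairs.

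Among these 8 pairs the difference was largest for phosphorylase. The log2 ratio of Pygm to Pygb was 6.08, 6.29, 6.70 and 6.37 in controls and 4.70, 4.78, 4.66 and 5.09 in mutants, a difference of -1.55. For Hk2 to Hk1 it was 3.70, 3.70, 3.49 and 3.63 in controls and 2.18, 2.21, 2.36 and 2.34 in mutants, a difference of -1.36. In levels per kilobase, Hk2 made up 94.2% to 94.9% of the pair in controls and 86.6% to 88.0% in mutants. Eno3 to Eno1 came next, with 3.88 to 4.08 in controls, 2.78 to 3.03 in mutants and a difference of -1.02. The remaining differences were -0.83 for Slc2a4 to Slc2a1, -0.74 for Aldoa to Aldoc, -0.72 for Pfkm to Pfkp, -0.70 for Pgam2 to Pgam1 and -0.67 for Pfkm to Pfkl. Aldoc, a brain isoform rather than a broadly expressed one, rests on few reads, 87 in all 8 mice. Control 4 was apart in the Aldoa to Aldoc ratio, at 14.8 against 14.1 in the other controls.

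The muscle-enriched isoform stayed the more abundant one of each pair in both genotypes. Per kilobase, Slc2a4 was 36.1 times as abundant as Slc2a1 in controls and 20.4 times in mutants, and Pygm 122 times as abundant as Pygb in controls and 41.7 times in mutants.

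**Figure D4:**
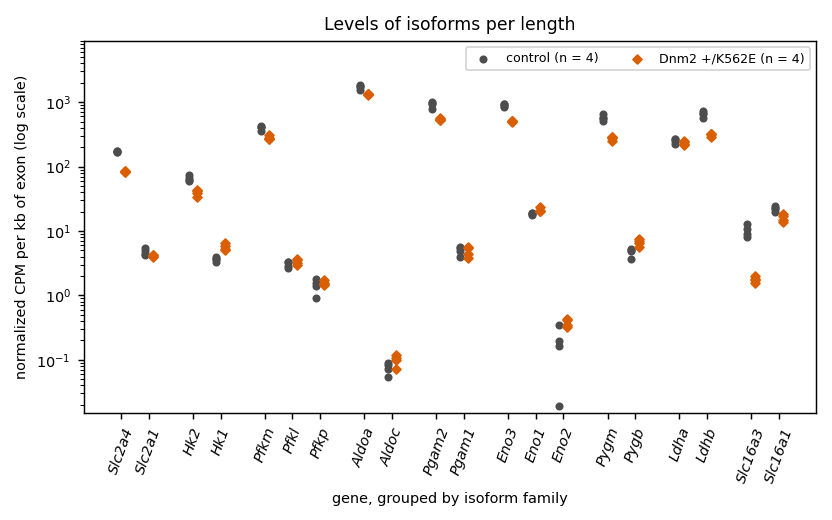
Points show normalized CPM per kilobase of exon on a log scale for the genes of 9 isoform families, with grey circles for the 4 controls and orange diamonds for the 4 Dnm2 +/K562E mice. Slc2a4, Hk2, Pfkm, Aldoa, Pgam2, Eno3 and Pygm lie below the controls in mutants, and each still lies above its partner genes.

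Of 3 further pairs, 2 differed. The log2 ratio of Ldha to Ldhb was -0.49, -0.43, -0.27 and -0.03 in controls and 0.69, 0.65, 0.56 and 0.69 in mutants, higher by 0.95 (exact p = 0.0286, adjusted p = 0.0314). Ldha made up 25.3% to 31.7% of lactate dehydrogenase levels per kilobase in controls and 41.2% to 43.4% in mutants. The exon lengths used were 3310 bases for Ldha and 1570 for Ldhb. The log2 ratio of Slc16a3 to Slc16a1 was -1.37, -1.04, -0.85 and -0.37 in controls and -2.95, -2.85, -2.71 and -3.19 in mutants, a difference of -2.02 (exact p = 0.0286, adjusted p = 0.0314). Slc16a3 made up 24.3% to 39.2% of the pair per kilobase in controls and 8.34% to 11.2% in mutants. For Gpd1 to Gpd2 the ranges overlapped, 1.76 to 2.11 in controls and 1.56 to 2.05 in mutants (exact p = 0.4). The difference of -0.13 was within the spread of either group (SD 0.18 and 0.20, n = 4 each).

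**Figure D5:**
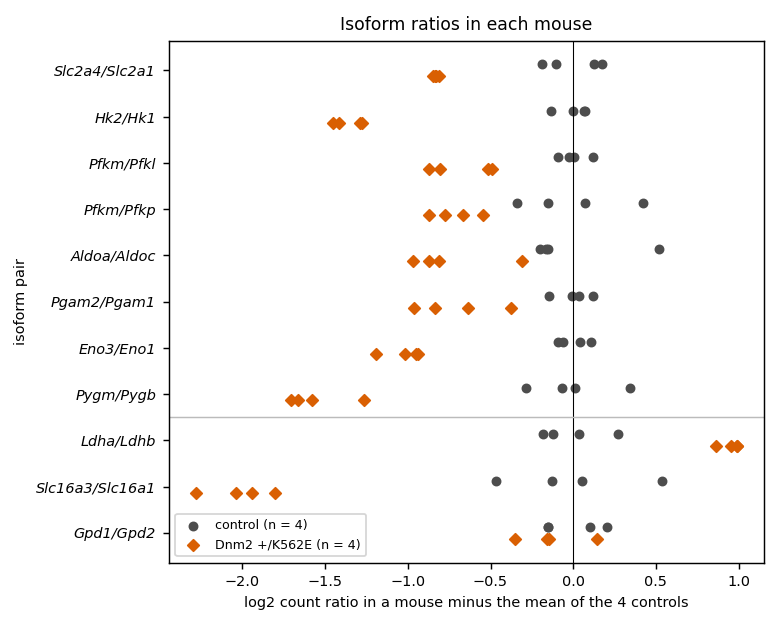
Points show the log2 count ratio of each of 11 isoform pairs in each mouse, minus the mean of the 4 controls, with grey circles for controls and orange diamonds for Dnm2 +/K562E mice. The mutants lie left of all controls in the 8 upper pairs and in Slc16a3/Slc16a1, right of them in Ldha/Ldhb, and among them in Gpd1/Gpd2.

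Promoter windows of RefSeq (GRCm38.p6, 250 bases before to 50 after the start) were held for 43 of the 45 genes, including 16 of the 18 lower ones. They were searched for short motifs, among them ones known from muscle and glycolytic promoters. CAGCTG, an E-box bound by myogenic factors, was found in the windows of 9 of the 16 lower genes (56.2%), of 6 of the other 27 (22.2%) and of 18.3% of 27025 genes. ACGTG, the core of hypoxia response elements, was found in 25 of the 43 (58.1%) and in 7 of the 16 lower genes (43.8%), 18 of the other 27 (66.7%) and 21.8% of all genes. AAGGTCA, the element of oestrogen-related receptors, was found in 3 of 43 (6.98%) against 5.38%. It was found in 2 of the 16 lower genes (12.5%) and 1 of the other 27 (3.7%). A gene can have more than 1 window, which raises its odds of a match. The 43 genes had 62 windows and the 27025 had 32851. Per window the shares were 24.2% against 16.3% for CAGCTG, 46.8% against 19.6% for ACGTG and 4.84% against 4.72% for AAGGTCA. Both strands were searched, ACGTG is also part of the E-box CACGTG and holds a CpG, and the windows were not matched for base composition. A match is a run of letters and not a measured binding site. A part of these motifs in the genotype differences was not tested, nor was their link to muscle-enriched expression. The stretches below lie before the RefSeq start on the gene's strand, 5′ to 3′, with CAGCTG in capitals in the first 4 and ACGTG in Slc16a3. In Pygm one match ends just before that start, and in Slc16a3 the matches begin 27 and 14 bases before it. The gene spans given above begin earlier, at 6384399 for Pygm and 120948480 for Slc16a3. This Pygm match and the Slc16a3 matches lie inside those spans.
Pygm (chr19:6384210-6384405, plus strand): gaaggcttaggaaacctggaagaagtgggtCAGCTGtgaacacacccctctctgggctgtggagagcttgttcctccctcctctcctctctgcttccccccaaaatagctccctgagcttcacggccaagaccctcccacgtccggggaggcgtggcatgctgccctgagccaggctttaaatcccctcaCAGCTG
Pgam2 (chr11:5803862-5803951, minus strand): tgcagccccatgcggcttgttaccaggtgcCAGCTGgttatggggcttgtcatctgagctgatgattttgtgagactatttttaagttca
Ppp1r3a (chr6:14755275-14755364, minus strand): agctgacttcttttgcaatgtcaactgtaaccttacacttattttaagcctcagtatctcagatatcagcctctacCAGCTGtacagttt
Phka1 (chrX:102644247-102644336, minus strand): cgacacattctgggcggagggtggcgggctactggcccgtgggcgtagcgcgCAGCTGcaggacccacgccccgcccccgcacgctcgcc
Slc16a3 (chr11:120949007-120949066, plus strand): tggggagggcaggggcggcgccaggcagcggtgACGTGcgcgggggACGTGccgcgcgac

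Further genes of glucose metabolism were taken from a list of 68, of which 59 were tested, to set the 45 in context. Of all tested genes, 7.85% fell and 12.9% rose, and 21.7% and 22.2% were lower and higher at the adjusted p. Of the 59 further genes 9 fell and 3 rose, 19 and 13 were lower and higher at the adjusted p. The median log2 fold change of these 59 was -0.09. Among the lower ones were Slc2a12, Tigar, Slc37a4, Galt, Khk, Tbc1d4, Prkaa2 and Mlxipl, and the higher ones were Hk3, Pgm5 and Prkaa1. The smallest p belonged to Prkaa2, the alpha 2 catalytic subunit of the energy sensor AMPK, with 162, 181, 176 and 183 normalized CPM in controls and 102, 103, 95.8 and 104 in mutants (log2 fold change -0.80, standard error 0.059, adjusted p = 3.09e-06). The alpha 1 subunit, Prkaa1, went the other way, with 28.0, 26.8, 24.1 and 28.7 in controls and 44.7, 41.7, 46.5 and 43.3 in mutants (log2 fold change 0.71, standard error 0.072, adjusted p = 2.34e-05). The groups did not overlap for either subunit, so the predominant muscle subunit was lower and the other higher. Mlxipl, which encodes the glucose-responsive factor ChREBP, was at 118 ± 11.2 and 53.1 ± 7.08 (SD, n = 4 each) for controls and mutants (log2 fold change -1.16, adjusted p = 8.88e-06). Slc2a12, the transporter GLUT12, went from 12.9 ± 1.68 (SD, n = 4) to 6.14 ± 0.532 (SD, n = 4), by -1.07 on the log2 scale (adjusted p = 4.18e-05). The insulin receptor Insr was at 120.0 ± 3.84 (SD, n = 4) and 82.1 ± 3.65 (SD, n = 4), a log2 fold change of -0.55 (adjusted p = 2.55e-05) that did not reach the fold threshold.

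The citric acid cycle, which oxidises the pyruvate that enters mitochondria, was lower throughout. All 17 of its genes were tested, and all 17 were lower at the adjusted p without overlap between genotypes. Of them, 15 passed both thresholds, while 7.85% of all tested genes were called lower. The median log2 fold change of the 17 was -0.80 (range -0.99 to -0.26), beside -0.42 for the 45 genes of glycolysis and glycogen. Whether these 2 medians differ was not tested.

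Of the fibre type markers, 7 of 8 slow and 7 of 10 fast ones were lower at the adjusted p, and the myosin heavy chains among them are given here. The slow myosin Myh7 was at 5808, 6013, 6384 and 5849 in controls and 4167, 4269.8, 4643 and 3694 in mutants (log2 fold change -0.52, adjusted p = 4.22e-04), under the fold threshold. The type IIA myosin Myh2 was at 10595.5, 9767, 9471 and 9179 in controls and 6064, 5966, 6279.8 and 7061 in mutants (log2 fold change -0.62, adjusted p = 1.36e-04). The type IIX myosin Myh1 was at 4846, 4728, 5212 and 4026.5 in controls and 4186, 4381, 4003 and 4623 in mutants, which overlapped (log2 fold change -0.13, adjusted p = 0.257). Myh4, the type IIB myosin, differed by -4.63 on the log2 scale (standard error 0.839, adjusted p = 0.00119), with control 4 far above the other controls. The myosins of slow, IIA and IIB fibres were thus lower in the same mice as the glycolysis and glycogen genes, and their part in those differences was not tested.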

How the data were processed

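RNA-seq of the soleus of 4 control and 4 Dnm2 +/K562E mice was used. The authors deposited raw gene counts per mouse, without normalization. Per the labels and the study's methods, reads were trimmed with Trimmomatic 0.33, aligned to GRCm38 and Ensembl genes (STAR 2.5.1b) and assigned to genes by featureCounts. Alignments needed a mapping quality of at least 10, multi-mapping reads were counted only at their primary alignment, and reads on overlapping genes were counted more than once. The strand setting is not given in the sources used here. The labels name a total RNA kit and the methods poly A enrichment, so the library type is uncertain.

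GENCODE M21 matched 22647 of 22880 identifiers. Genes kept by filterByExpr (edgeR 4.0.16, at least 10 counts and 15 in total) were scaled by TMM and fitted with the quasi-likelihood F-test, without a block. P-values were adjusted by Benjamini-Hochberg over all 14001 genes. The standard error follows from the F statistic. Ratios used counts plus 0.5 and exact permutation tests (scipy 1.17.1). Sequence shared with transcripts of other genes was searched by 31-base stretches. The fit was tested on simulated counts in which 198 tested genes changed by 1.5 on the log2 scale. It recovered 92.9% of them, with 6 false calls among 190. Smaller changes, as most here, were not simulated. Nor were scaling factors that differ between the genotypes, or a share of changed genes as large as in these data. The simulation therefore does not probe the scaling.

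The genes and lists were chosen with earlier results of these data known. Genes given with all mice were those past both thresholds, the isoform pairs and the 3 most abundant per length. Of the further genes, those among the 6 with the smallest p-value are described, except 1 that is not reported here. Others were added after their values were seen (Pfkfb3, Eno2, Gapdh, the AMPK pair in all mice, the ends of ranges). Alternatives were edgeR's exact test, DESeq2 1.42.0, other scalings and filters, replicate blocks, no fold threshold and leaving out mice. Depth was 33407430 to 48832814 counts, and p-values set the genotype difference against the spread between these mice.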

Additional observations from a re-analysis of the deposited data

Results flagged for a closer look

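In 9 of 112 groups of 4 mice examined, 1 mouse lay far from the other 3, by Dixon's test of its gap against the group's range, and chance alone gives about 1 in 20. Control 1 was the mouse in 4 of them. It had 65.7 normalized CPM of Pfkfb1, against 25.4 to 30.1 in the other controls. Its Pfkfb4 was 19.6, against 15.5 to 16.2, and its Ppp1r3a was 267, against 191 to 198. Its Ppp1r3c was 145, against 536 to 596. Control 4 had 126 normalized CPM of Gbe1, against 135 to 137, and a log2 ratio of Aldoa to Aldoc of 14.8, against 14.07 to 14.12. Among the Dnm2 +/K562E mice, mouse 4 had 1015 normalized CPM of Pfkm, against 896 to 914. Mouse 2 had 45.3 of Pfkfb3, against 32.2 to 34.1, and mouse 1 had 129 of Eno1, against 109 to 109.8. Of these, only Ppp1r3c and Pfkfb1 moved by more than 0.3 on the log2 scale when that mouse was left out, to -1.48 and -0.80.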

How the results depend on the processing

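Over 17 alternatives to the comparison of single genes, 709 values kept their direction and their call (both thresholds together), 14 lost a call, 11 gained one and 13 changed sign. At the adjusted p alone, 37 of 747 values crossed 0.05, 13 of them for Eno1 and 8 with library size alone (among others, Aldoa, Pgk1 and Phkb lost it there, at 0.0927, 0.463 and 0.349, and Gpi1 gained it, at 0.00669). The 11 isoform ratios kept theirs in all 110 values, although 3 mice against 4 cannot give an exact p under 0.0571. Library size alone gave 2865 higher and 564 lower genes of all, and 10 higher and 5 lower of the 59 further genes. Without the fold threshold there were 3103 and 3036 of all genes, 5 higher of the 45 and 13 and 19 of the further genes. Leaving out controls 1 and 4 together, chosen after seeing the data, gave 4 higher of the 45 and 7 of the further genes. Leaving out 1 mouse at a time gave 1588 to 1970 higher and 1026 to 1208 lower genes of all, 1 to 4 higher and 17 to 20 lower of the 45, 2 to 3 higher and 9 to 11 lower of the further genes, and 10 to 10 ratios without overlap. The 1 was without Dnm2 +/K562E mouse 1 (Hk1 short of the threshold) and the 4 without control 1 (Pfkfb3 and Eno2 added). The cause was not tested. Signs turned with library size alone for Slc2a1 (0.0074), Pfkfb2 (0.16), Pfkfb4 (0.047), Gapdh (0.19), Pgam1 (0.15), Pkm (0.15), Ldha (0.089) and Epm2a (0.016). They also turned for Pfkp without control 1, for Pfkfb2 without control 2 and without Dnm2 +/K562E mouse 2 (0.014), and for Pgam1 without control 2 (0.0034) and without Dnm2 +/K562E mouse 3. Over all left-out mice Pfkp ran from -0.0232 to 0.273, Pfkfb2 from -0.138 to 0.0288 and Pgam1 from -0.170 to 0.0305.

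The mice of both genotypes are numbered 1 to 4 but are different animals. Same-numbered mice deviated from their group means with a mean correlation of -0.114 by the titles and -0.0302 by the descriptions, which number the mutants in another order. The replicate block by title number called 1637 higher and 1036 lower genes, 2 and 17 of the 45, and 2 and 9 of the further genes. With the description number the block gave 1739 and 1083, 2 and 18, and 2 and 9. At this depth Aldoc and Eno2 rest on few reads.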
